A study of Homo sapiens with 24 samples.

Results

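The regions described here gained chromatin accessibility in both lymphoma lines at both times of exposure to a CDK9 inhibitor. Members were chosen by the authors' differential calls: the same chromosome, start and end had to stand in each of the 4 deposited lists of increased regions, which cover both lines and the times 3 h and 8 h. There were 615 such regions among 26369 regions in any of the 8 deposited lists and among 13686 regions increased in at least 1 list. Since the calls fixed membership, how often these regions were called is a description and carries no test.

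OCI-LY3 and VAL are human diffuse large B-cell lymphoma (DLBCL) cell lines, and each was treated with 30 nM AZD4573 for 0, 3 or 8 h. Accessibility was assayed by ATAC-seq in 24 libraries, 4 per line and time, of which 2 were labelled as the standard protocol on 50000 cells and 2 as Fast-ATAC on 5000 cells, although the methods text gives 50000 cells for Fast-ATAC. The file names call the control DMSO and the labels call it 0 h. The control of both times of a line was taken here to be its 0 h libraries. The series design gives OCI-LY3 as the germinal centre type and VAL as the activated B-cell type, the reverse of the usual classification, so the lines are called by name only. The lists hold positions on hg19 and no read counts, so depth, the size of each change and the spread between libraries are unknown here, and the labelled cell type could not be checked against marker levels.

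CDK9 is the kinase of P-TEFb, which phosphorylates the C-terminal domain of RNA polymerase II and the pausing factors NELF and DSIF, and so releases polymerase that has paused just after the transcription start site (TSS). ATAC-seq inserts adapters into DNA that nucleosomes do not cover, and active promoters and enhancers give its strongest signal. Many promoters of housekeeping genes carry CpG islands and sites for ETS family factors, YY1 and the cAMP response element (CRE) binding factors.

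Sequences of some members are shown first, picked because they hold a motif counted further on. Matches were tallied at 92 named genes with the canonical TSS in a member. In the 150 bases before the TSS, 12 of the 92 held an ETS match, 6 a CRE and 5 a YY1 match, and 8 held a YY1 match in the 50 bases after it. The stretches were read from GRCh37 on the strand of the gene, and the canonical TSS of each gene came from GENCODE. The first set holds the 150 bases before the TSS of 4 genes with an exact ETS match, which is in capitals and reads CCGGAAG, or CTTCCGG where it lies on the other strand. RPS21 codes for a protein of the small cytosolic ribosomal subunit, MRPL20 for one of the large mitochondrial subunit, EIF6 for a factor that keeps the ribosomal subunits apart, and NELFE for a subunit of the pausing factor NELF.
RPS21, chr20:60962009-60962158, plus strand: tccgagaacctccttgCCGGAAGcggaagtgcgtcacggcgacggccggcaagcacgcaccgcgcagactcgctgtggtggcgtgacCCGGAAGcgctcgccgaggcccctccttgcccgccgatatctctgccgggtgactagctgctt
MRPL20, chr1:1342674-1342823, minus strand: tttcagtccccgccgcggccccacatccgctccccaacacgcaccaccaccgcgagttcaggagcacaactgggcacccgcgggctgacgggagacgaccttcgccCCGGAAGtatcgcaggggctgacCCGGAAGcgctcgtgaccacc
EIF6, chr20:33872576-33872725, minus strand: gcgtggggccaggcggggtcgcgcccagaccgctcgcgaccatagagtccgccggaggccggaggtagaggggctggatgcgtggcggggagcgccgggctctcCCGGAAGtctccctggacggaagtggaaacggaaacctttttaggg
NELFE, chr6:31926749-31926898, minus strand: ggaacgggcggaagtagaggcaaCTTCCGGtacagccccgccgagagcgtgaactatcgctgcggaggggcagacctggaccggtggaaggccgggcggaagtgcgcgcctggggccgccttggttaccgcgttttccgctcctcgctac
RPS21 and MRPL20 each held 2 matches in this stretch, whereas EIF6 and NELFE held 1.

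The second set shows the CRE, TGACGTCA, in capitals in the 150 bases before the TSS of RPLP2, which codes for an acidic protein of the large ribosomal subunit, and of 2 zinc finger genes of chromosome 19. ZNF121 also held a YY1 match, in capitals as GCCATCTT, 10 bases past the CRE.
RPLP2, chr11:809817-809966, plus strand: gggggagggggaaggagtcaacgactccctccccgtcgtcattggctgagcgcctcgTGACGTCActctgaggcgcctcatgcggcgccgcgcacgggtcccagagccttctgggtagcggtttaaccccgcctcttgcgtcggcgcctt
ZNF121, chr19:9695181-9695330, minus strand: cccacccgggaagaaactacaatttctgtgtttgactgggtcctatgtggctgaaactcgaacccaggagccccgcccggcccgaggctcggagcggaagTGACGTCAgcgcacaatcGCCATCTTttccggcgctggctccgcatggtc
ZNF561, chr19:9731909-9732058, minus strand: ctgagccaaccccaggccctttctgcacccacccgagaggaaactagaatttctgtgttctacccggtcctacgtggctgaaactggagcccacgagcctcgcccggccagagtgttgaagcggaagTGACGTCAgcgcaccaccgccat
ZNF121 and ZNF561 shared an unbroken run of 22 bases around the CRE, and ZNF266, another zinc finger gene with a CRE before its TSS, shared 15 bases with each of them.

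The third set shows YY1 matches, AAGATGGC, that lay just past the TSS, each with the bases beside it. MRPS18A codes for a mitochondrial ribosomal protein and TAF6 for a subunit of the general transcription factor TFIID.
MRPS18A, chr6:43655504-43655527, minus strand: ggtttttgAAGATGGCggccctca
TAF6, chr7:99716956-99716979, minus strand: gcggggccAAGATGGCgccgagcg
A YY1 match lay before the TSS at EZR, the gene of the membrane linker ezrin, whose promoter held one of the widest members.
EZR, chr6:159240401-159240550, minus strand: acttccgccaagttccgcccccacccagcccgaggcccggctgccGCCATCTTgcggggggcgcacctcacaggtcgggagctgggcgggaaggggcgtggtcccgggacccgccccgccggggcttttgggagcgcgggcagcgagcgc
Away from promoters, the member in intron 3 of IRF8, a transcription factor of B cells, held the octamer (ATGCAAAT, here on the other strand) in the 200 bases around its midpoint. The members in introns of BCL2L1 and CDKN1A held none of the ETS, AP-1, PU.1, IRF, octamer, E-box and NF-kB matches there and are not shown.
IRF8, chr16:85944258-85944457, plus strand: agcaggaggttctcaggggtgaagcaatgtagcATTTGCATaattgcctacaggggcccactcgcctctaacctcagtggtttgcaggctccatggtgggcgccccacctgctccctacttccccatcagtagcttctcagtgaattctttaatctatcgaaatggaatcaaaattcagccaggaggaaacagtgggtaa

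The lists differed in length, and members were a different share of each. VAL had 3545 increased regions at 3 h (13.4% of all listed regions) and 11121 at 8 h (42.2%), and members were 17.3% and 5.53% of them. OCI-LY3 had 1852 increased regions at 3 h (7.02%) and 4367 at 8 h (16.6%), and members were 33.2% and 14.1% of them. The 4 percentages of all listed regions take the regions in any list as their base, because the lists do not hold the number tested. At 3 h, 729 regions were increased in both lines, and 84.4% of these were members. At 8 h, 2327 regions were increased in both lines, and 26.4% were members. VAL had 3307 regions increased at both times and OCI-LY3 had 1365, so members were 18.6% of the first and 45.1% of the second.

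Just outside the rule stood 1001 regions that were in 3 of the 4 increased lists. The OCI-LY3 list lacked the region for 641 of them at 3 h and for 71 at 8 h. The VAL list lacked it for 258 at 3 h and for 31 at 8 h. None of the 1001 was in the decreased list of the missing comparison (0 of 1001). A TSS lay within 1000 bp of 60.6% of them, their median width was 1507 bp and their median GC content was 58.2%. The shortest list, OCI-LY3 at 3 h, was thus the one most often lacking.

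**Figure D1:**
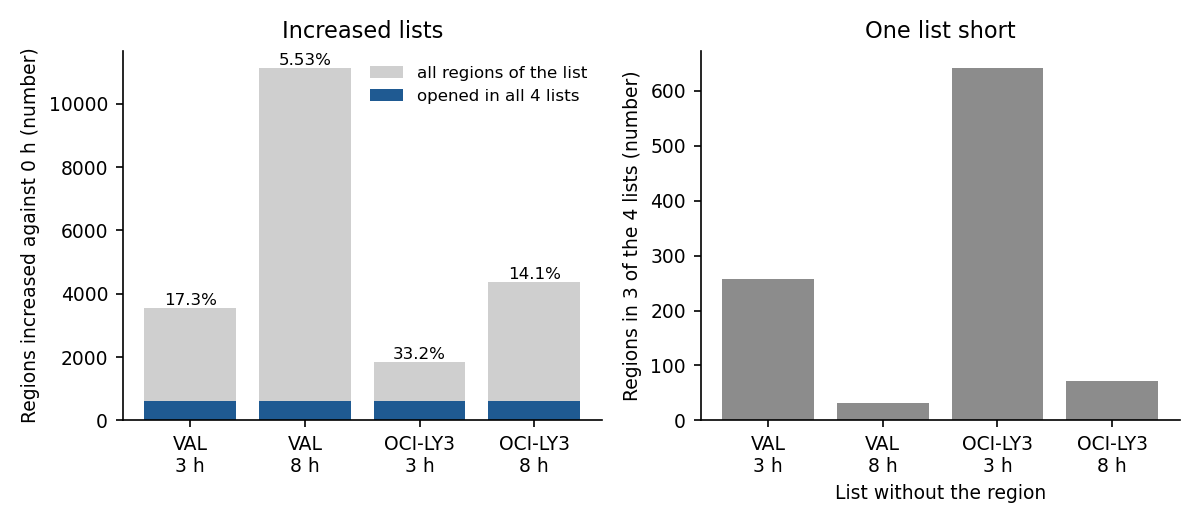
Left, the number of regions (y axis) in each of the 4 increased lists (x axis), with the 615 regions shared by all 4 in blue and their share of the list above each bar; right, the number of regions in exactly 3 lists, by the list that lacked them. Members filled 33.2% of the OCI-LY3 list at 3 h and 5.53% of the VAL list at 8 h, and 641 regions lacked the OCI-LY3 list at 3 h alone.

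Most of the shared regions lay at promoters. A TSS lay within 1000 bp of 476 of the 615 (77.4%, 95% Wilson interval 73.9 to 80.5), and inside the region itself in 465 (75.6%). Counting protein-coding genes alone, 449 regions (73.0%) had a TSS within 1000 bp. The nearest comparison was the 1712 regions increased in both lines at 8 h but not in both at 3 h, of which 51.4% had a TSS within 1000 bp. The difference was 26 percentage points (95% Newcombe interval 21.8 to 29.9). The share was 44.6% of the 8706 regions increased in VAL alone, 26.6% of the 2259 increased in OCI-LY3 alone and 13.3% of the 12683 decreased regions that were never increased. The intervals here and below count regions, which are not independent replicates, and cover no spread between libraries.

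**Figure D2:**
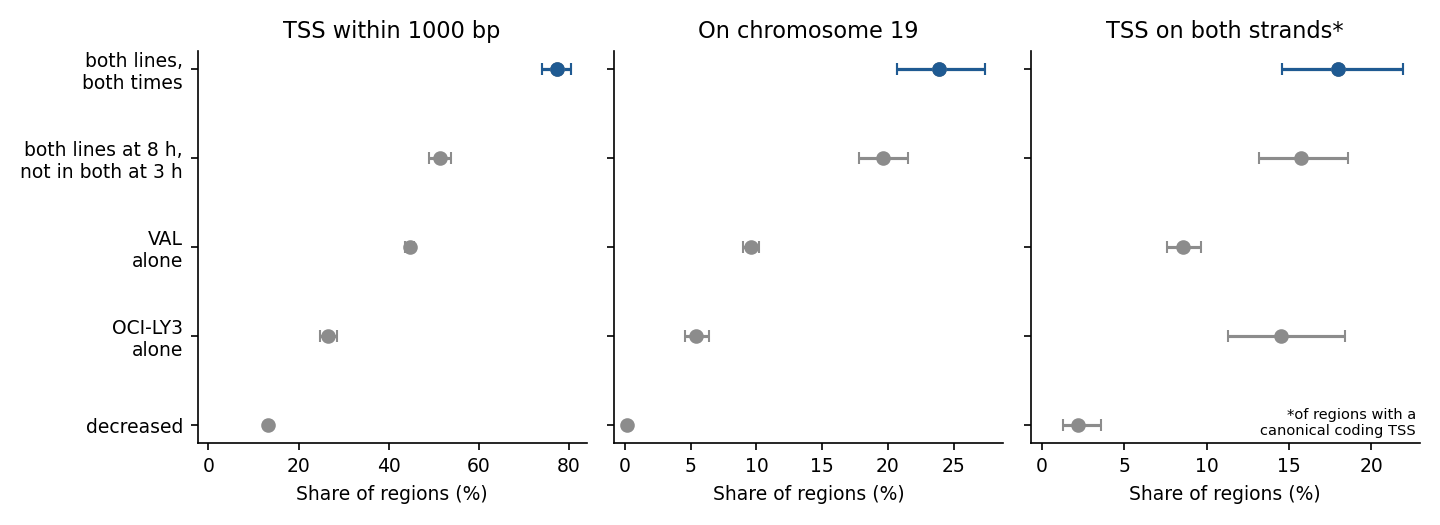
Share of regions (x axis, percent) with a TSS within 1000 bp, on chromosome 19, and with canonical coding TSSs on both strands among regions that hold one, for 5 sets of regions (y axis). Points are shares and bars are 95% Wilson intervals; members, in blue, stood at 77.4%, 23.9% and 18.0%.

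Members were also wide and rich in GC. Their median width was 1600 bp (range 428 to 2968 bp, 95% interval of the median 1555 to 1642), against 1456 bp (1434 to 1483) for the later shared regions. Median GC content was 60.3% (59.7 to 61.1), against 57.1% (56.6 to 57.6). The ratio of observed to expected CpG had a median of 0.664, against 0.373 for the later shared regions. The 476 promoter members alone had a median width of 1652 bp, a GC content of 62.1% and a CpG ratio of 0.713, against 1601 bp, 60.4% and 0.688 at the 880 promoters of the later shared regions. Promoter regions increased in VAL alone had a narrower median of 1501 bp, but their GC content of 62.8% and CpG ratio of 0.711 were as high as those of the members. The gap in the CpG ratio between members and later shared regions was smaller at promoters, where the 95% intervals of the medians overlapped (0.695 to 0.727 and 0.673 to 0.701). Wide regions collect more reads and pass a count test more easily, and the part of region signal in which regions were called 4 times was not tested.

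At promoters the regions straddled the TSS and reached further into the gene than before it. In the 329 members with a single canonical coding TSS, the region began a median of 672 bp upstream (quartiles 535 to 817) and ended 909 bp downstream (761 to 1113). In the 563 later shared regions of the same kind, the medians were 710 bp upstream and 865 bp downstream. Coding TSSs on both strands lay in 76 of the 423 members that held a canonical coding TSS (18.0%, 14.6 to 21.9), against 15.7% of the later shared regions, a difference of 2.23 points (-2.20 to 6.90). The share was 8.59% of the regions increased in VAL alone, 9.38 points lower (5.84 to 13.4), and 14.5% of those increased in OCI-LY3 alone, a difference of 3.46 points (-1.70 to 8.53).

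The 476 promoter members lay within 1000 bp of a TSS of 563 of 19856 protein-coding genes (2.84%, 2.61 to 3.08). They also lay at a TSS of 133 of 18642 lncRNA genes (0.713%), 12 of 427 snoRNA genes (2.81%) and 13 of 3040 miRNA genes (0.428%). The coding genes were short: the median canonical transcript spanned 12980 bp (95% interval 11509 to 14002), against 15480 bp for genes at later shared regions, 23312 bp for genes at regions increased in VAL alone and 23019 bp for all coding genes. Under 10000 bp were 40.9% of them, against 29.4% of all. A region decreased in any comparison lay inside the canonical transcript of 8 of the 563 genes (1.42%), 0.949% of the genes at later shared regions and 15.4% of all coding genes. Among genes under 10000 bp, it lay in 2 of 230 with a member (0.870%) and in 183 of all 5839 (3.13%).

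Among genes of the translation apparatus, the share with a member stood above the 2.84% of all coding genes. The lists were chosen with earlier results known, so these shares and those of the groups below are given as counts and their difference from all genes was not tested. A member stood at 15 of 79 cytosolic ribosomal protein genes (19%), and 55 of the 79 had a region increased in at least 1 list, as did 5615 of all 19856 coding genes (28.3%). A later shared region stood at as many, 15 of the 79, but later shared regions reached more genes. Of all 19881 canonical coding transcripts, 563 were of genes with a member and 948 of genes with a later shared region. A decreased, never increased region stood at the genes of 917. Both ribosomal subunits were represented among the 15 genes with a member. Genes of the large subunit included RPL10A, RPL11, RPL18, RPL23 and RPLP2, and those of the small subunit included RPS2, RPS9, RPS16, RPS21, RPS27, RPS28 and FAU, which codes for a ubiquitin-like protein fused to eS30. The member at RPLP2 (chr11:808621-810626) was 2006 bp wide and reached 1346 bp upstream of the TSS. The one at RPS27 (chr1:153962727-153963977) was the narrowest of the group at 1251 bp, with 511 bp upstream and 739 bp downstream.

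Translation factors had members at 9 of 63 genes (14.3%), later shared regions at 9 and decreased regions at 2. They covered several steps of initiation and elongation: EIF4A1 and EIF4A2, the RNA helicases of the cap-binding complex, EIF4G1, its scaffold, EIF3G, a subunit of eIF3, EIF2B1 and EIF2B5, subunits of the exchange factor of eIF2, EIF6, and EEF1D and EEF1G, subunits of the elongation factor eEF1. The EIF4G1 member (chr3:184031857-184033700) was 1844 bp wide with 66.9% GC. Mitochondrial ribosomal protein genes had members at 7 of 78 (8.97%) and later shared regions at 12. Those with members were MRPL14, MRPL20, MRPL21, MRPL34, MRPL49, MRPS7 and MRPS18A. FAU and MRPL49 shared 1 region, as divergent genes, and the MRPL34 region lay at the start of a transcript other than its canonical one.

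Small nucleolar RNAs guide modification of ribosomal RNA, and their host genes carry them in introns. The host genes had members at 6 of 31 (19.4%) and later shared regions at 3. The hosts listed are lncRNA genes, and of all lncRNA genes 0.713% had a member. The 6 were SNHG1, SNHG7, SNHG9, SNHG12, SNHG21 and SNHG32. SNHG9 and RPS2 shared a region (chr16:2014067-2015799), their TSSs on opposite strands. The SNHG12 region (chr1:28907161-28909566) was 2406 bp wide and lay almost wholly downstream, 68 bp before the TSS and 2337 bp after it. At SNHG1 (chr11:62622583-62624873, 2291 bp) the region reached 1479 bp upstream, and transcripts of SLC3A2, the heavy chain of amino acid transporters, other than its canonical one also start in it.

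The machinery that CDK9 acts on was itself among the genes. Of 30 genes of P-TEFb, pausing and elongation, 4 had a member (13.3%) and 17 a region increased in at least 1 list, against the 28.3% of all coding genes. A later shared region stood at 1 of the 30 and a decreased region at 2. Of all 19881 canonical coding transcripts, 948 were of genes with a later shared region. A decreased, never increased region stood at the genes of 917. NELFB and NELFE code for subunits of NELF, SUPT5H for the DSIF subunit that P-TEFb phosphorylates, and SUPT6H for the histone chaperone SPT6. The NELFE region (chr6:31926044-31927419) was 1376 bp wide, with 671 bp before and 704 bp after the TSS, and also held the TSS of the RNA helicase gene SKIC2 on the other strand. The SUPT5H region (chr19:39935423-39937068) was 1646 bp wide and lay within 10000 bp of the member at RPS16 (chr19:39925715-39927207). The genes of CDK9 and of its cyclins were not among the 4. RNA polymerase II and its general factors had members at 4 of 40 genes (10.0%), POLR2E and POLR2G for polymerase subunits, GTF2H3 for a TFIIH subunit and TAF6. Later shared regions stood at 3 of the 40. GTF2H3 and EIF2B1 shared a region. The Mediator complex had a member at 1 of 31 genes, MED8 (3.23%), near the 2.84% of all coding genes. Later shared regions stood at 6 of the 31, against 948 of all 19881 canonical coding transcripts.

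Other housekeeping groups had members as well. Proteasome subunits had members at 4 of 48 genes (8.33%), PSMA7, PSMB9, PSMC5 and PSME3, of which PSMB9 codes for an immunoproteasome subunit. Later shared regions stood at 5 of the 48. The PSMA7 region (chr20:60717592-60719581) had the highest GC content of all members, 77.2%. The PSME3 region lay at the promoter of the autophagy gene BECN1 and away from the canonical TSS of PSME3. SR and hnRNP splicing factors had members at 3 of 38 (7.89%), HNRNPAB, HNRNPM and SRSF2, and later shared regions at 2. Heat shock genes had members at 2 of 22 (9.09%) and later shared regions at 4. HSF1, the master activator of the heat shock response, was among the 2.

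Stress and immediate early genes had members at 4 of 52 (7.69%), later shared regions at 4 and decreased regions at 3. Of all 19881 canonical coding transcripts, 948 were of genes with a later shared region. A decreased, never increased region stood at the genes of 917. The stress and immediate early genes with members were JUNB, an AP-1 subunit, GADD45B, a stress response gene, PPP1R15A, which codes for a phosphatase subunit that reverses the block of translation at eIF2, and ZFP36, which codes for a protein that destabilises mRNAs with AU-rich elements. The PPP1R15A region (chr19:49375423-49376766) lay mostly downstream, 255 bp before and 1088 bp after the TSS. In the BCL2 family, 2 of 16 genes had a member at the promoter (12.5%) and 1 a later shared region. The 2 with a member act in opposite directions in apoptosis. MCL1, an inhibitor of apoptosis, had a region of 1623 bp (chr1:150551149-150552771), and BAX, which permeabilises mitochondria, had one of 1329 bp (chr19:49457652-49458980). BAX was also the only gene with a member at the promoter among 25 of the p53 axis (4%), near the 2.84% of all coding genes. Of the 25, 19 had a region increased in at least 1 list and 4 a later shared region. IRAK1, a kinase below Toll-like receptors, was the only gene with a member among 26 of the NF-kB pathway (3.85%), also near the share of all coding genes. A later shared region stood at 4 of the 26.

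Genes of B-cell identity had members at 4 of 31 (12.9%) and later shared regions at 5. Of the 31, 13 had a region increased in at least 1 list at the promoter, against 28.3% of all coding genes. A decreased region stood at 3 of the 31. Over all 19881 canonical coding transcripts, 917 were of genes with a decreased, never increased region at a TSS. Among the 4, CD79B codes for a signalling chain of the B-cell receptor, and SPI1 and SPIB for the ETS factors PU.1 and Spi-B. Their regions were wide: 2087 bp at CD79B (chr17:62008511-62010597), 2272 bp at SPI1 (chr11:47398309-47400580) and 2623 bp at SPIB (chr19:50920577-50923199). The SPIB region reached 1618 bp upstream of the TSS. The SPI1 region lay mostly downstream, with 482 bp before and 1789 bp after it.

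Of the gene groups, 2 had no member. None of 64 replication-dependent histone genes had one (0 of 64), against 2.84% of all coding genes. Of the 64, 18 had a region increased in at least 1 list, near the 28.3% of all coding genes. None of 26 genes of small nuclear and other short RNAs had a member (0 of 26), and 12 had a region increased in at least 1 list. Of genes of any type, 1.20% had a member. At such shares groups of this size may hold none, so the 2 zeros are not read as differences. Zinc finger genes of chromosome 19 had members at 16 of 240 (6.67%), which was under the 8.50% of all coding genes on that chromosome. Later shared regions stood at 21 of the 240. The 16 included ZNF121, ZNF136, ZNF266, ZNF317, ZNF561 and ZNF700, and the genes ZNF490 and ZNF791 shared a region. These genes arose by duplication, and the authors kept uniquely aligned reads, so calls at near-identical copies are uncertain.

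**Figure D3:**
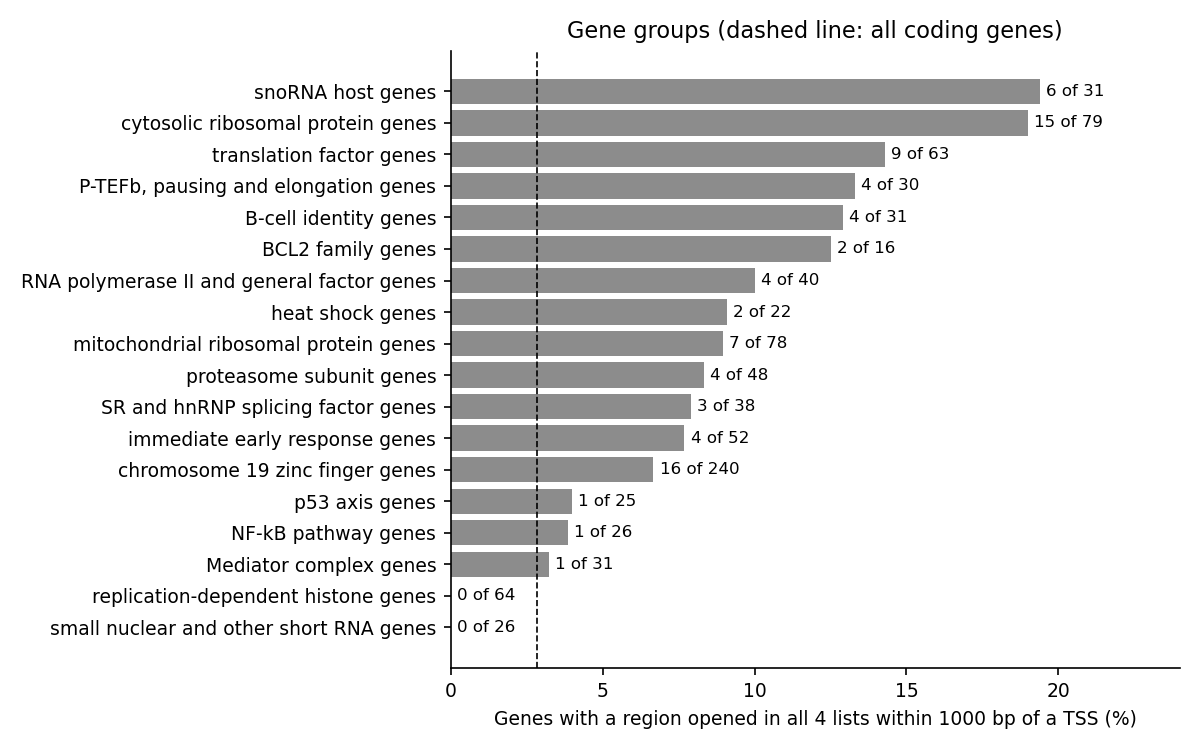
Percent of the genes of each group (x axis) with a region opened in all 4 lists within 1000 bp of a TSS, for 18 gene groups (y axis), with the number of genes beside each bar and a dashed line at the 2.84% of all coding genes. Not drawn are the 0.713% of lncRNA genes, the class of the snoRNA hosts, and the 1.20% of genes of any type, the base for the short RNA genes. snoRNA host genes (6 of 31) and cytosolic ribosomal protein genes (15 of 79) had the highest shares, and histone and short RNA genes had none.

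Some members covered a whole gene. The canonical transcript lay wholly inside the region for 7 coding genes, of which 4 have a symbol. JUNB, with 1 exon and 1830 bp, lay in the widest member of all (chr19:12902033-12905000, 2968 bp). LTB, which codes for lymphotoxin beta, has 4 exons over 1867 bp and lay in a region of 2529 bp (chr6:31548232-31550760). PVRIG, an inhibitory receptor gene of lymphocytes, has 5 exons over 1542 bp in a region of 2485 bp (chr7:99817057-99819541), and CCDC85B has 1 exon of 963 bp in a region of 1535 bp (chr11:65657815-65659349). The other 3 were single-exon transcripts of 72, 132 and 141 bp with no symbol. Accessibility over such genes cannot be split between promoter and gene body. A canonical coding transcript end lay inside 36 members (5.85%), against 4.32% of the later shared regions, a difference of 1.53 points (-0.390 to 3.84).

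The 10 widest members spanned 2707 to 2968 bp, and 9 of them were promoter members. After JUNB came a region that held the divergent start sites of NACC1 and TRMT1 (2957 bp), then EZR (2942 bp), GPATCH4 (2924 bp) and GAPDH (2884 bp), the glycolytic enzyme. SBNO2 (2852 bp), FAM107B (2810 bp), the pair MAP3K11 and PCNX3 (2721 bp) and POGZ (2707 bp) completed the promoter regions. At SBNO2 and FAM107B the TSS in the region was that of a transcript other than the canonical one. The exception lay outside coding genes, 4053 bp from the nearest TSS (chr9:140022113-140024985, 2873 bp).

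Away from promoters there were 139 members, and they differed from the promoter members in composition. Their median width was 1292 bp, their GC content 54.5% and their CpG ratio 0.257. They were mostly near genes: the median distance to a TSS was 6626 bp, against 8610 bp for the 832 later shared regions of this kind, with overlapping 95% intervals (5454 to 8678 and 7737 to 9494). A TSS lay within 10000 bp of 88 and within 50000 bp of 134. The midpoint was in an intron of a coding gene in 85 (61.2%), of which 42 were in intron 1. It was in an exon in 8 (5.76%) and outside coding genes in 46 (33.1%).

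Introns of 3 genes named in the study held such members. In CDKN1A, which codes for the cell cycle inhibitor p21, the member was in intron 1, with its midpoint 3965 bp after the TSS (chr6:36649800-36651112), whereas the promoter region of 2927 bp was in the other 3 increased lists and not in that of OCI-LY3 at 3 h. In BCL2L1, which codes for the apoptosis inhibitor BCL-XL, it was in intron 2, 14052 bp after the TSS (chr20:30296103-30297136), and a second region in that intron was in both OCI-LY3 lists alone. In IRF8 it was in intron 3, 11590 bp after the TSS (chr16:85943741-85944975), and the region over the canonical TSS was increased in VAL at both times and in neither OCI-LY3 list. Of 15 genes named in the study, 2 had a member at the promoter, JUNB and MCL1. BBC3, DTX1, MDM2, PIM1, PIM3 and PLCG2 had regions increased in some lists and no member, and MDM2 also had a region in intron 8 that was decreased in VAL at 8 h. MYC and PIK3AP1 had decreased regions only, and CXCR4 and MED12 had no listed region.

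Members seldom stood in groups. Merged within 10000 bp, the 615 regions formed 576 loci, of which 540 held a single member, 33 held 2 and 3 held 3. One triple lay at HDAC7, a histone deacetylase gene, and the nearby LINC02354 on chromosome 12 (chr12:48201494-48220662). Another lay at MKNK2, which codes for a kinase of the initiation factor eIF4E (chr19:2041376-2062358). The third lay in intron 2 of GNG7, a G protein subunit gene (chr19:2624335-2637382), with no TSS within 1000 bp of any of its 3 regions. Another region increased in at least 1 list, member or not, lay within 10000 bp of 351 members (57.1%), against 51.8% of the later shared regions and 36.5% of all increased regions. A region decreased in any comparison lay that close to 16 members (2.60%), 1.87% of the later shared regions and 4.19% of all increased regions.

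Chromosome 19 held 147 members (23.9%, 20.7 to 27.4), more than any other chromosome. The share was 19.6% of the later shared regions, 4.33 points lower (0.587 to 8.30), and 9.59% of the regions increased in VAL alone. Of the decreased regions it was 0.118%. Chromosomes 16, 17 and 19 together held 281 members (45.7%). These chromosomes are rich in genes, so the shares are also given per gene. A member stood at 8.50% of the coding genes of chromosome 19, 7.85% of those of chromosome 16 and 5.54% of those of chromosome 17, against 1.73% on chromosome 1 and 0.885% on chromosome 2. On chromosome X it was 0.357%, on chromosome 13 0.312%, and on chromosome 18 none of 266 genes had one. Copy number in the lines was not measured here, and its part in these shares was not tested.

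**Figure D4:**
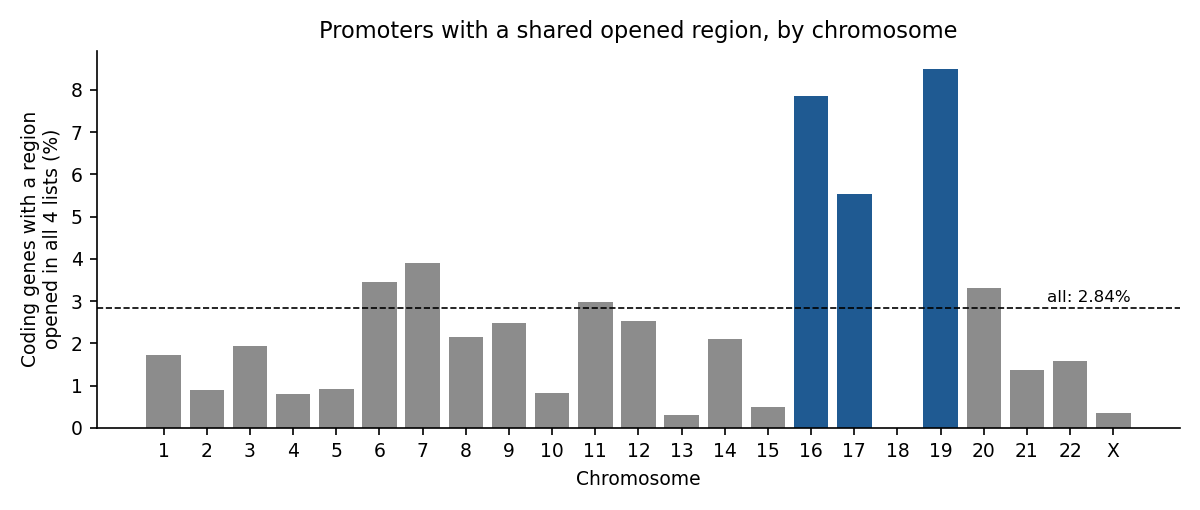
Percent of the protein-coding genes of each chromosome (y axis) with a region opened in all 4 lists within 1000 bp of a TSS, by chromosome (x axis), with a dashed line at the 2.84% of all coding genes. Chromosomes 16, 17 and 19, in blue, stood at 7.85%, 5.54% and 8.50%, and chromosome 18 at 0.

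The promoters shared short sequences that the rule did not use. Exact matches on both strands were counted in 300 bases, from 250 before to 50 after the canonical TSS, of the 563 coding genes with a member. A gene counted if any of its TSSs lay within 1000 bp of a member. For some of the genes, such as SBNO2 and FAM107B, the canonical TSS and these 300 bases therefore lay outside the member. The genes at later shared regions were gathered in the same way. The ETS match CCGGAAG stood in 185 (32.9%, 29.1 to 36.8), against 14.1% of all 19856 coding promoters, a difference of 18.7 points (14.9 to 22.7). Among 935 promoters of later shared regions it stood in 26.6%, a difference of 6.23 points (1.47 to 11.1). The match closest to each TSS had a median position of -25.5 bases, where minus is upstream (quartiles -79.5 to -4.50).

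The YY1 match AAGATGGC stood in 59 of the 563 promoters (10.5%), against 4.06% of all, a difference of 6.42 points (4.13 to 9.24). Its median position was 13.0 bases past the TSS, and 14.0 bases in all coding promoters that held it. The difference from the later shared promoters (7.59%) was 2.89 points, with an interval that included 0 (-0.0577 to 6.08). An ETS or a YY1 match stood in 225 promoters (40.0%), against 17.3% of all and 31.8% of the later shared. The CRE TGACGTCA stood in 30 (5.33%), against 2.68% of all (difference 2.65 points, 1.06 to 4.84) and 3.32% of the later shared (2.01 points, -0.0595 to 4.40). The shorter TGACG, which every CRE contains, stood in 40.7%, against 29.2% of all.

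Among the other promoter elements, the GC box GGGCGG stood in 75.3% of the member promoters. This was 13.9 points (10.1 to 17.3) above the 61.4% of all promoters, and the 76.0% of the later shared was level with it (difference -0.732 points, -5.29 to 3.68). The CCAAT box stood in 34.5%, against 36.0% and 37.3%. TATAAA stood in 7.64%, against 9.62% of all (difference -1.98 points, -3.94 to 0.543) and 3.42% of the later shared (4.22 points, 1.86 to 6.90). The AP-1 match TGANTCA stood in 3.91% against 5.39%, with a difference of -1.49 points (-2.84 to 0.476). Of factors of B cells, the octamer stood in 1.60% against 1.57%, the PU.1 match GAGGAAGT in 2.31% against 2.54% and the NF-kB match GGGANTTTCC in 0.888% against 0.514%. The IRF match GAAANNGAAA stood in 2.84% against 3.29%, the E-box CACGTG in 7.99% against 8.76%, and the CArG box in 2.49% against 1.20%. Of these 6 motifs, the CArG box alone had a difference from all promoters whose interval left out 0 (1.29 points, 0.275 to 2.94). Its difference from the later shared promoters did include 0 (1.20 points, -0.173 to 2.94).

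**Figure D5:**
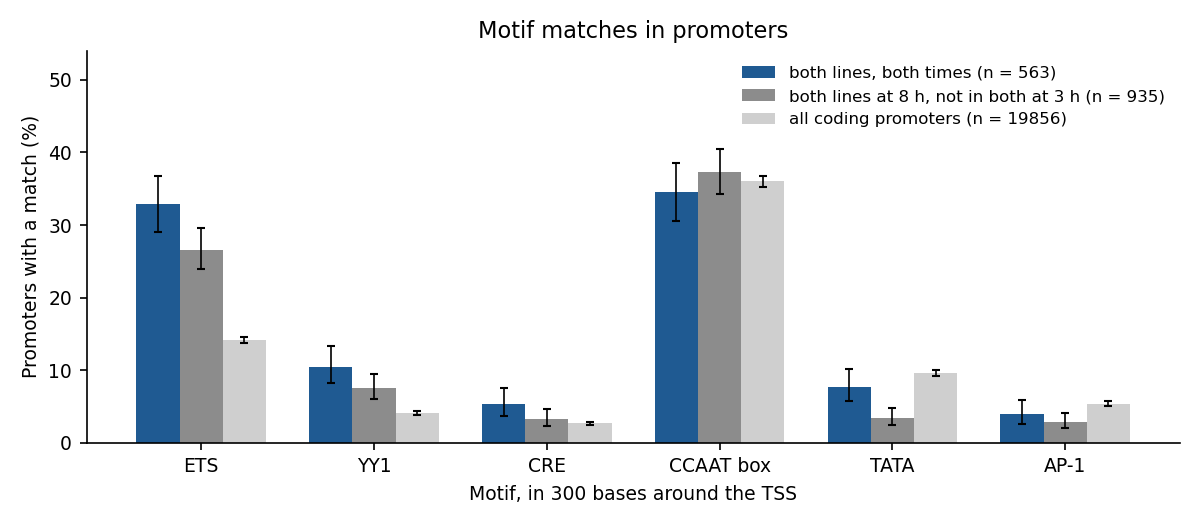
Percent of promoters (y axis) with an exact match to each motif (x axis) in 300 bases around the canonical TSS. The sets are 563 genes with a member at any of their TSSs, 935 genes of later shared regions and all 19856 coding genes. Bars carry 95% Wilson intervals; ETS matches stood in 32.9%, 26.6% and 14.1%, and CCAAT boxes in 34.5%, 37.3% and 36.0%.

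Member promoters were richer in GC than all promoters, with a median of 66.7% in the 300 bases against 63.7%. The median was also 66.7% at later shared promoters and was 68.7% at those of regions increased in VAL alone. The ETS match was therefore counted within bands of GC. Under 60% GC it stood in 26.8% of member promoters and 10.2% of all. From 60% to under 70% it stood in 38.5% and 19.8%, and at 70% or more in 29.7% and 12.7%. The later shared promoters stood at 26.3%, 31.3% and 20.2% in these bands, so under 60% GC they were level with the members. The YY1 match stood in 10.7%, 13.0% and 7.55% of member promoters in the same bands, against 3.66%, 5.24% and 3.20% of all and 8.78%, 6.78% and 7.95% of the later shared, which were above the members in the highest band.

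Matches near the midpoint differed between members at and away from promoters. In 200 bases around the midpoint, the ETS match stood in 81 of the 615 (13.2%), against 6.31% of the later shared regions (difference 6.86 points, 4.11 to 9.95). The 2 sets differ in their share of promoters. At promoters alone the ETS match stood in 16.8% of members and 10.9% of later shared regions (5.90 points, 2.09 to 9.98). In the 139 members away from promoters it stood in 1 (0.719%), against 1.44% of the later shared. In the same 139 members the AP-1 match stood in 14 (10.1%, 6.09 to 16.2). It stood in 6.01% of the 832 later shared regions away from promoters, a difference of 4.06 points (-0.314 to 10.3). Decreased regions away from promoters stood at 8.10%, a difference of 1.97 points (-2.04 to 8.12). The octamer stood in 5 of the 139 (3.6%), that of IRF8 among them, against 4.21%. Among all members the AP-1 match stood in 22, so 8 were at promoters. Over the whole region, the ETS match stood in 18 of the 139 (12.9%) and in 47.7% of promoter members, and the AP-1 match in 34.5% and 23.5%. Decreased regions away from promoters held the AP-1 match in 37.6%.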

How the data were processed

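ATAC-seq reads of 24 libraries were aligned by the authors to hg19 with Bowtie2. The authors dropped reads from mitochondria, duplicates and reads with several alignments, and peaks from MACS2 were merged with bedtools. The authors tested each treated time against the control of its line in DESeq2, taken here as the 0 h libraries. The sources used here give different adjusted p thresholds for the calls. The deposited lists hold the start and end of each region and no value, and 0 columns of per-sample values were found. Samples were grouped by the line and time in their labels, and the lists do not show which libraries entered each comparison.

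From these lists, identical coordinates were intersected. TSSs came from GENCODE 44 lifted to GRCh37, on which 0 regions passed a chromosome's end. Motifs were exact matches (0 mismatches) on both strands. Shares carry 95% Wilson intervals and differences Newcombe intervals, medians order-statistic intervals, with no p-value, in Python 3.11.15, numpy 2.4.6, pandas 2.3.3 and scipy 1.17.1. Motif search and intervals were tested on simulated data. Named genes were those of 19 gene lists with a member at a TSS, genes wholly inside a member, genes at the 10 widest members and in the largest clusters, and 15 genes named in the study. Members and lists were chosen with earlier results of these data known. Alternatives changed the distance to a TSS, the overlap, the merging of neighbours, chromosome 19, the motif window and the transcripts used. Some genes of these lists are not reported here by name.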

Additional observations from a re-analysis of the deposited data

How the results depend on the processing

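No paired analysis was possible because the deposited lists give positions and nothing measured in single libraries, and for the same reason no replicate could be left out and no threshold on the calls could be changed. The number of members stayed at 615 with a reciprocal overlap of at least 50%, became 576 after merging within 10000 bp, and was 468 without chromosome 19. The promoter share rose to 86.2% with a TSS within 5000 bp and was 73.0% with protein-coding TSSs alone. Median GC content was 66.5% in 200 bp around the midpoint and 62.1% in promoter members alone, whose median width was 1652 bp. Motif shares depended on the window, since a longer stretch holds more matches. Over whole regions the ETS match stood in 39.8%, YY1 in 14.0%, CRE in 6.02%, AP-1 in 26% and the GC box in 83.7%, and in the 200 bp of promoter members alone ETS stood in 16.8%, AP-1 in 1.68% and the GC box in 61.1%. The other alternatives, including those for chromosome 19 share, gene groups and whole genes inside members, stayed within the interval of the reported share or within 1.5 times the reported count, apart from 3 gene groups of at most 2 members that gained 1 or 2 with a TSS within 5000 bp. The depth behind each call is unknown.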
